A study of Arabidopsis thaliana with 24 samples.

Results

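The libraries described here are the 4 of the series' 24 that hold NAD-captured RNA of the Arabidopsis thaliana mutant dxo1: 2 from plants treated with abscisic acid (ABA) and 2 from untreated plants (NT). They were picked by their labels, and the comparison covers the 28496 nuclear genes of the 28775 genes counted. All 4 carry the lesion in DXO1, so the ABA and NT plants differ by the hormone and not by genotype. The labels describe 12-day-old seedlings in one field and bud tissue in another, and the ABA dose and the length of treatment were not given in the sources used here. The other groups used below are total RNA and GMUCT libraries of dxo1 with and without ABA (GMUCT sequences RNA that is uncapped or cleaved at its 5' end), and the NAD libraries of wild-type Col-0 with and without ABA, each with 2 replicates per group. Nothing in the labels says that the replicates came from separate plant cultures, so the p-values measure only the spread between these libraries, which may be technical.

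Most eukaryotic messenger RNAs start with a methylguanosine cap, and a minority start instead with nicotinamide adenine dinucleotide (NAD), which RNA polymerase can use in place of ATP as the first nucleotide. DXO1 is the plant member of the DXO family of enzymes, which strip the NAD cap from RNA, so that dxo1 plants are used to look at NAD-capped RNA in the absence of one of its removal routes. ABA is the hormone of water shortage and seed maturation: it binds PYR/PYL receptors, which then inhibit the clade A PP2C phosphatases, and the released SnRK2 kinases activate bZIP factors that bind the ABA-responsive element (ABRE, core letters ACGTG) in the promoters of protective genes. An NAD library counts the captured molecules of a gene, which depend on how much RNA the gene makes as well as on what share of it carries NAD. In bulk seedlings, fewer cells of a type and less RNA per cell cannot be told apart either.

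The 2 ABA libraries held 247577 and 221856 reads on nuclear genes, and the 2 NT libraries held 284485 and 240485. These were 27.4% and 29.6% of all gene counts in the ABA libraries and 30.3% and 28.1% in the NT libraries, and 1 mitochondrial rRNA gene (ATMG01390) took between 43.9% and 49.3% of the gene counts of each. A gene with 1 read therefore stood at 3.87 to 5.01 CPM (reads scaled to a common library size) in the libraries, and 14094 to 15161 nuclear genes had at least 1 read. Log2 CPM of the tested genes correlated between replicates at r = 0.890 in the ABA group and 0.887 in the NT group, across genes. The first Col-0 ABA NAD library stood apart: it had 66539 nuclear reads, ATMG01390 took 85.1% of its gene counts, and its correlation with its replicate was 0.601. It lends its spread to the fit, so the counts of the dxo1 ABA contrast and of the genotype difference are given with and without it. The Col-0 response is given only with it. DXO1 itself had 2 and 2 reads in the ABA libraries against 6 and 1 in the NT libraries, and in GMUCT it averaged 17.8 CPM with ABA and 20.4 CPM without (log2 fold change -0.20 ± 0.18 (SE), edgeR adjusted p = 0.629). The gene still gave reads in the mutant, so its counts do not check the label.

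Of 3659 nuclear genes with enough reads to test, 6 were higher with ABA (0.164%) and 9 were lower (0.246%) in the dxo1 NAD libraries at an adjusted p under 0.05 (edgeR quasi-likelihood test, Benjamini-Hochberg). The 6 were the late embryogenesis abundant (LEA) gene AT3G02480, the seed LEA gene M17, the oil-body gene OLEO2, SOFL2, the transporter gene AT3G05155 and the cell-wall gene XTH7. The 9 were AT2G33830, SEN1, ASN1, CCL, BGAL4, STP1, DIN10, AT3G15450 and GRP7, many of them known as genes that darkness or lack of sugar switches on. The median log2 fold change of all genes tested was 0.01, and 226 genes had an unadjusted p under 0.05. The number that passed differed with the libraries, genes and test used, and the reason was not tested. It was 56 of 4719 genes tested (1.19%) without the first Col-0 ABA NAD library. With the 4 dxo1 NAD libraries alone it was 64 of 2933 (2.18%), and by the DESeq2 Wald test it was 1. With protein-coding genes alone, 16 were higher and 23 lower of 3581 tested in all 8 NAD libraries. Scaling by library totals alone gave 9 higher and 7 lower, with the median of all genes at 0.16. All 15 genes passed again in the fit without that Col-0 library, and 14 of them, all but OLEO2, with the dxo1 NAD libraries alone.

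**Figure D1:**
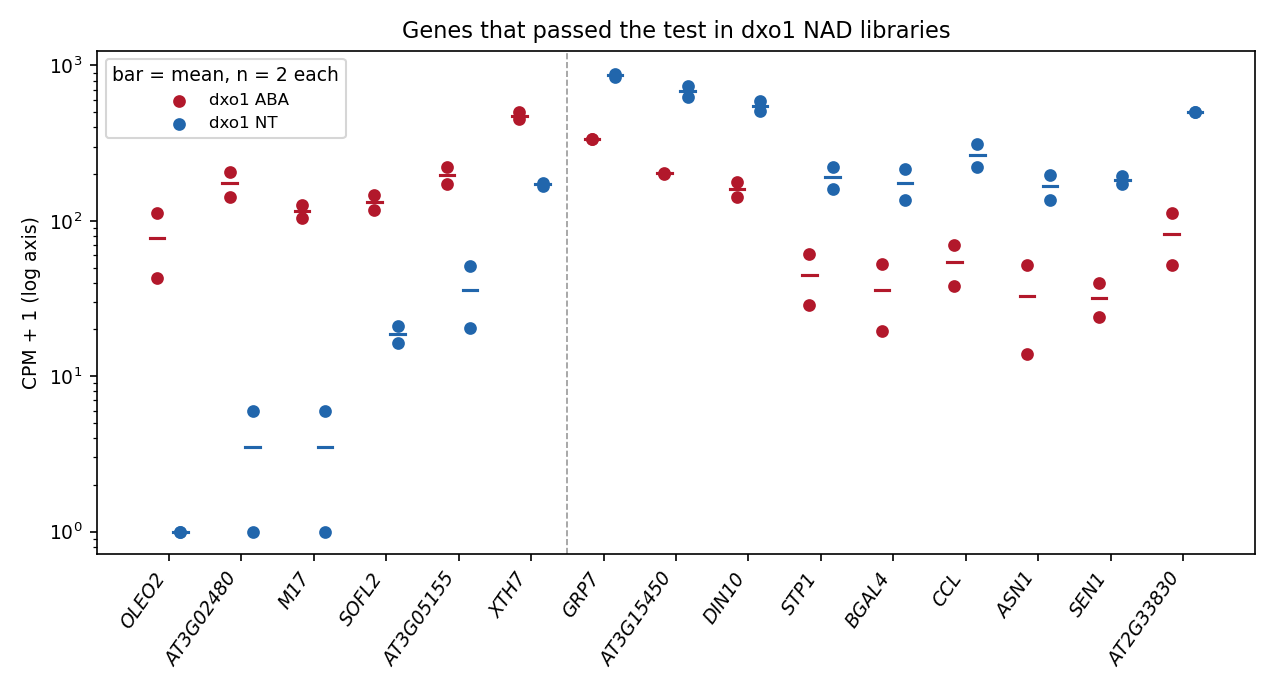
CPM plus 1 on a log axis of the 15 genes that passed the test, in each dxo1 NAD library, with ABA in red left of NT in blue; the bar is the mean of n = 2. The 6 genes left of the dashed line were higher with ABA and the 9 to its right were lower, and in none of them did the 2 groups overlap. Of all 3659 genes tested, 21.8% had both ABA libraries above both NT libraries and 20% had both below.

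The upstream sequences of 8 of these genes are shown because short DNA motifs of known hormone, sugar and clock promoters can be read in them. Each is the 250 bases before the annotated transcript start in TAIR10.1 (RefSeq), printed 5' to 3' on the gene's strand. Capitals mark, on either strand, the ABRE core ACGTG (or its reverse complement CACGT), the sugar-repressible element TTATCC (or GGATAA) and the evening element AAAATATCT (or AGATATTTT), a motif of clock-controlled evening genes; the sugar and evening elements were searched only after the genes that passed were known. The first sequence belongs to the LEA gene that rose, and the other 7 to genes that fell.
AT3G02480 (chr3:511970-512219, plus strand): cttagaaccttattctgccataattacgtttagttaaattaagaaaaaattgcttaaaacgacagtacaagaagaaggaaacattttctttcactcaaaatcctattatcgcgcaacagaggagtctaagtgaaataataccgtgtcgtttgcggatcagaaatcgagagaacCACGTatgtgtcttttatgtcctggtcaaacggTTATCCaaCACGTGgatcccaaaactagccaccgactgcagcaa
SEN1 (chr4:16944628-16944877, plus strand): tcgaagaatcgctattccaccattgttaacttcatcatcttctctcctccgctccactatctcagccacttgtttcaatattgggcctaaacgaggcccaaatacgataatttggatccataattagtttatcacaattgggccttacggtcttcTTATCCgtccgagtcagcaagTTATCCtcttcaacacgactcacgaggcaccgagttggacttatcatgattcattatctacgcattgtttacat
AT2G33830 (chr2:14310609-14310858, minus strand): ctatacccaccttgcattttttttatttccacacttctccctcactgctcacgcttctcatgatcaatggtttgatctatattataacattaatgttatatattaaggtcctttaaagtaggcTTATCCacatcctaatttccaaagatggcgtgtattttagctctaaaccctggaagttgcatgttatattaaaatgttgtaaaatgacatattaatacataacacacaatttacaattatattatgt
ASN1 (chr3:17441432-17441681, minus strand): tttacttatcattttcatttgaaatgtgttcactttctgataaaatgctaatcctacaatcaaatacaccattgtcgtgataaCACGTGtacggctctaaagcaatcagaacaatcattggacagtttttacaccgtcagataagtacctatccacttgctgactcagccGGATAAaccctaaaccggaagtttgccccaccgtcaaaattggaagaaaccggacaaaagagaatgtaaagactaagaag
STP1 (chr1:3776986-3777235, plus strand): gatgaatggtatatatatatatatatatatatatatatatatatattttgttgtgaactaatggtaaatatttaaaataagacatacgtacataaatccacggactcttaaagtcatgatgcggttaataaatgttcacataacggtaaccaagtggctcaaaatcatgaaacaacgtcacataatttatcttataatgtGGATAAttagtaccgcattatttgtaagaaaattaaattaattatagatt
AT3G15450 (chr3:5212734-5212983, plus strand): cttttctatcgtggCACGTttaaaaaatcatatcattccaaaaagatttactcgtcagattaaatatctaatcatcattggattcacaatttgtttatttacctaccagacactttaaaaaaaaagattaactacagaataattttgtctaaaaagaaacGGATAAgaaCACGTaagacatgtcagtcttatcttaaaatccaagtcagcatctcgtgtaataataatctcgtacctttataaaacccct
CCL (chr3:9827432-9827681, plus strand): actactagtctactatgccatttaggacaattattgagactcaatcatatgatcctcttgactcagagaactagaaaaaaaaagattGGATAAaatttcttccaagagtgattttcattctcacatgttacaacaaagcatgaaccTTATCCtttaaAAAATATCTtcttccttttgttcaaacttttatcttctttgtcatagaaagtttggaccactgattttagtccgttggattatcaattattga
GRP7 (chr2:9266558-9266807, minus strand): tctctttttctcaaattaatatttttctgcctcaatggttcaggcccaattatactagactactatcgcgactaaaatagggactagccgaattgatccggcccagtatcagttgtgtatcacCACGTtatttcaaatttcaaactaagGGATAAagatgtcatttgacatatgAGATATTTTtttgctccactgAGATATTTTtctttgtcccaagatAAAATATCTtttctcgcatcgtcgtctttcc

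Over the window from 250 bases before to 50 bases after the start, TTATCC was in 8 of the 9 genes that fell (88.9%, all but BGAL4), against 2 of the 6 that rose (33.3%), 702 of all genes tested that have a window (19.2%) and 4138 of all nuclear genes (14.8%). In the SEN1 window it occurred 3 times, of which 2 lie in the bases shown. Among the 36 genes lower in the fit without the first Col-0 ABA NAD library the share was 47.2%. Among the 42 lower with the dxo1 NAD libraries alone it was 40.5%. Both sets hold all 9 genes that fell in the main fit, so they do not repeat the share in separate genes. In the other assays TTATCC was in 7 of 12 genes that fell in total RNA (58.3%) and in 86 of 509 that fell in GMUCT (16.9%). The 7 include STP1, GRP7, AT2G33830, AT3G15450 and SEN1, which are also among the 9. Of the genes that rose, 24.1% had this element in total RNA and 14.3% in GMUCT. Over all genes tested in GMUCT the share was 15.7%, close to the 16.9% of those that fell. For total RNA the share over all genes tested was not counted. The evening element was in 2 of the 9, 3 times in GRP7 and once in CCL (22.2%), in 0 of the 6 and in 4.1% of all genes tested.

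The ABRE core was counted in the same windows. It was in 1 of the 6 genes that rose (16.7%), AT3G02480, whose window holds 7 matches counted over both strands, 3 of them in the bases shown. It was in 4 of the 9 that fell (44.4%: GRP7, AT3G15450, ASN1 and DIN10), against 30.6% of all genes tested. In total RNA 12 of 29 genes that rose had it (41.4%), against 7 of 12 that fell (58.3%). The share over all genes tested in total RNA was not counted, and the 7 include GRP7 and AT3G15450. In GMUCT 466 of 1036 genes that rose had it (45%), against 148 of 509 that fell (29.1%) and 28.3% of all genes tested there. These shares are descriptions of letters in a window and were not tested.

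The genes with known roles in seed maturation and desiccation, AT3G02480, M17 and OLEO2, had the largest rises of the 6. AT3G02480 encodes a LEA protein, a class of hydrophilic proteins that protect drying cells (chromosome 3, 512220 to 513036, plus strand, TAIR10.1). It had 33 and 44 reads in the ABA libraries (142 and 204 CPM) against 0 and 1 in the NT libraries (0 and 5.01 CPM). Both ABA libraries were far above both NT libraries; the ratio of normalised sums was 78.8, with a 95% exact interval of 13.7 to 3151 that covers counting error only. Its fitted log2 fold change was 5.93 ± 0.79 (SE, edgeR adjusted p = 0.00078), a value that depends on the prior count because 1 NT library was at 0.

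M17, a LEA gene of maturing seeds, had 24 and 27 reads with ABA (103 and 125 CPM) against 0 and 1 without (0 and 5.01 CPM). The ratio was 52.2 with an interval of 8.95 to 2101, and the fitted log2 fold change was 5.33 ± 0.83 (edgeR adjusted p = 0.0049). OLEO2 encodes an oleosin, the protein that coats seed oil bodies. It had 26 and 9 reads with ABA (112 and 41.7 CPM) and none in either NT library, so that it was at least 11.9-fold higher, taking 3 reads over the NT group as the floor (edgeR adjusted p = 0.0349). OLEO2 overlaps AT5G40410 on the opposite strand, and how strand was treated in counting is not given in the sources used here. Among the genes that fell, ASN1, BGAL4, STP1, DIN10 and AT3G15450 also overlap a gene on the opposite strand.

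The other genes that rose belong to other families. SOFL2, of a small family linked to cytokinin levels, had 147 and 116 CPM in the ABA libraries against 15.5 and 20.1 CPM in the NT libraries, from 34, 25, 4 and 4 reads (log2 fold change 2.86 ± 0.63, edgeR adjusted p = 0.0499, the value nearest the threshold of the 15). AT3G05155, annotated as a major facilitator superfamily transporter, stood at 220 and 171 CPM with ABA against 19.3 and 50.1 CPM without (2.53 ± 0.53, edgeR adjusted p = 0.0349). XTH7 encodes a xyloglucan endotransglucosylase/hydrolase, which cuts and rejoins wall polymers. It averaged 474 ± 36.6 CPM with ABA and 171 ± 6.54 CPM without (SD, n = 2 each), and rose by 1.47 ± 0.30 on the log2 scale (edgeR adjusted p = 0.029).

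Genes that darkness or sugar shortage induces made up most of the falls. AT2G33830, of the dormancy/auxin-associated family, fell to 112 and 50.9 CPM in the ABA libraries, against 499 and 501 CPM in the NT libraries. The NT pair was close together and the ABA pair was apart, and the fall of 2.60 ± 0.35 on the log2 scale was the largest of the 9 (edgeR adjusted p = 0.00078). SEN1, a gene of senescing and dark-kept leaves, stood at 38.8 and 23.2 CPM with ABA against 193 and 170 CPM without (log2 fold change -2.52 ± 0.48, edgeR adjusted p = 0.0223). ASN1 encodes the asparagine synthetase that stores nitrogen when carbon is short. It had 12.9 and 50.9 CPM with ABA against 135 and 196 CPM without; the ABA replicates, from 3 and 11 reads, stood apart from each other but both below the NT libraries (-2.36 ± 0.47, edgeR adjusted p = 0.029).

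STP1, the plasma-membrane hexose importer, had 60.4 and 27.8 CPM with ABA against 220 and 160 CPM without (-2.09 ± 0.43, edgeR adjusted p = 0.029). BGAL4, a beta-galactosidase, stood at 51.7 and 18.5 CPM with ABA against 135 and 216 CPM without (-2.27 ± 0.46, edgeR adjusted p = 0.029). DIN10, a dark-inducible gene of the raffinose synthase family, had 142 and 176 CPM with ABA and 506 and 587 CPM without (-1.78 ± 0.32, edgeR adjusted p = 0.0125). In each of these 3 genes both ABA libraries lay below both NT libraries, as they did in 20% of all genes tested.

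AT3G15450 encodes a protein of the aluminium-induced family; it had 203 and 199 CPM with ABA against 742 and 622 CPM without (-1.76 ± 0.31, edgeR adjusted p = 0.0109). CCL had 69 and 37.1 CPM with ABA against 220 and 311 CPM without (-2.29 ± 0.38, edgeR adjusted p = 0.0065). GRP7 encodes a glycine-rich RNA-binding protein that cycles with the circadian clock. It averaged 335 ± 2.05 CPM in the ABA libraries and 866 ± 26.8 CPM in the NT libraries (SD, n = 2 each), with replicates close together in both groups, and its log2 fold change was -1.37 ± 0.30 (edgeR adjusted p = 0.0413).

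Leaving out 1 of the 4 dxo1 NAD libraries at a time left a lone library in 1 group, assumed to vary like the others. AT3G02480 passed in all 4 such fits, and M17 and AT2G33830 in 3 of the 4. XTH7, SOFL2, STP1, DIN10, AT3G15450 and GRP7 missed the threshold in each of them, and the remaining 6 missed it in 2 or 3. The count was 3 without the first ABA library, 14 without the second, 11 without the first NT library and 5 without the second.

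**Figure D2:**
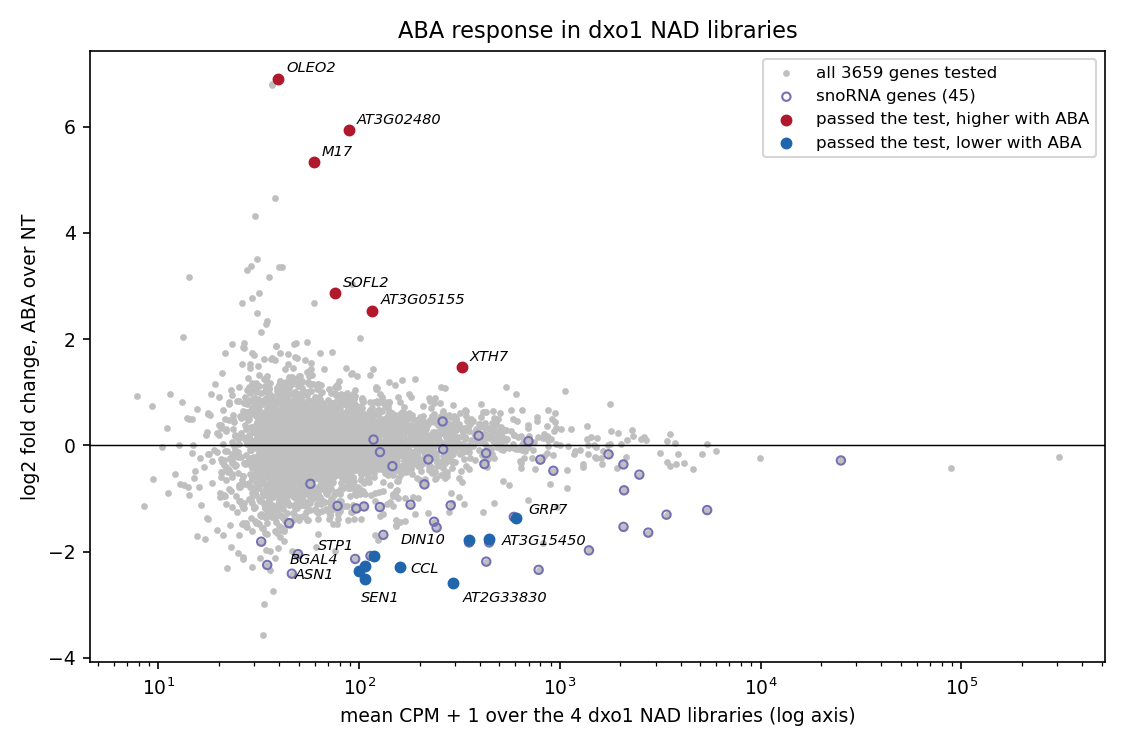
Log2 fold change (ABA over NT) of the 3659 genes tested in the dxo1 NAD libraries against their mean CPM plus 1 on a log axis. Filled points are the 6 genes higher and the 9 lower with ABA; open circles are the 45 snoRNA genes tested, most of which lie below 0.

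The gene lists were read against these background shares and against the median of 0.01. Of 40 genes that ABA or desiccation is known to induce, 19 were tested and 1 rose, AT3G02480. Of the 19, 15 had a positive and 4 a negative fold change, with a median of 0.81. Members with NT reads at or near 0 entered the test mainly through ABA libraries, which tilts these signs and the median upward. The list's reads summed to 648 and 664 in the ABA libraries against 513 and 346 in the NT libraries, so both sums were higher with ABA. RD29B, a hydrophilic protein gene long used as an ABA reporter, had 14 and 18 reads with ABA and none in either NT library, at least 10.9-fold higher, and narrowly missed the threshold (edgeR adjusted p = 0.0605); it passed without the first Col-0 ABA NAD library and with the dxo1 NAD libraries alone. KIN1, a cold- and ABA-responsive gene, had 60.4 and 111 CPM with ABA against 23.2 and 20.1 CPM without (1.94 ± 0.65, edgeR adjusted p = 0.372). LEA7 had 11 and 17 reads against 3 and 0, a ratio of 9.55 with an interval of 2.95 to 49.1 (edgeR adjusted p = 0.424).

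Other classical markers showed smaller values or replicates that stood apart. RAB18, a dehydrin, had 185 and 157 CPM with ABA against 104 and 15 CPM without; the NT replicates were 27 and 3 reads (1.43 ± 0.56, edgeR adjusted p = 0.583). COR15A, a chloroplast protein of cold tolerance, had 69 and 83.4 CPM against 23.2 and 15 CPM (1.93 ± 0.84, edgeR adjusted p = 0.735). RD29A had 94.9 and 92.6 CPM with ABA and 85 and 70.2 CPM without (0.26 ± 0.43), and KIN2 246 and 310 CPM with ABA and 189 and 236 CPM without (0.39 ± 0.31). In GMUCT, which is far deeper, all 40 genes of the list could be tested and 30 rose, against 1036 of all 19535 genes tested there (5.3%), with a median of 1.38.

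Seed storage and oil-body genes were scarce in the NT libraries and present in the ABA libraries. The 15 genes of the list summed to 101 and 75 reads with ABA against 7 and 4 reads without. Only 4 had enough reads to test, mainly through the ABA libraries where they were high, and OLEO2 and M17 rose. CRA1, a cruciferin storage protein gene, had 15 and 17 reads with ABA against 3 and 0 without, a ratio of 10.9 with an interval of 3.41 to 55.7 (edgeR adjusted p = 0.297). CRU3, another cruciferin gene, had 13 and 3 reads against 1 and 3, so that its groups overlapped. The median of the 4 was 4.34, or 3.46 with OLEO2 at its floor. SESA1, SESA3, SESA4, CRU2 and M10 had no read in any of the 4 libraries.

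The glyoxylate cycle turns stored fat into sugar in germinating seedlings, and its 2 dedicated enzymes stood out in a list of 5 of which none passed. ICL, isocitrate lyase, had 48 and 26 reads with ABA against 7 and 2 without (3.04 ± 0.69, edgeR adjusted p = 0.0605), and it passed without the first Col-0 ABA NAD library. MLS, malate synthase, had 12 and 13 reads against 2 and 0, a ratio of 12.8 with an interval of 3.19 to 111 (edgeR adjusted p = 0.265). The list's median was 0.27.

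Of the 9 genes in the list of dark and sugar starvation genes, 7 were tested and 5 fell (SEN1, ASN1, DIN10, AT2G33830 and BGAL4), with 1 positive and 6 negative fold changes and a median of -2.27. Their reads summed to 88 and 79 in the ABA libraries against 390 and 352 in the NT libraries. The list was written with earlier results of these data known, so its count is not independent evidence of a direction.

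**Figure D3:**
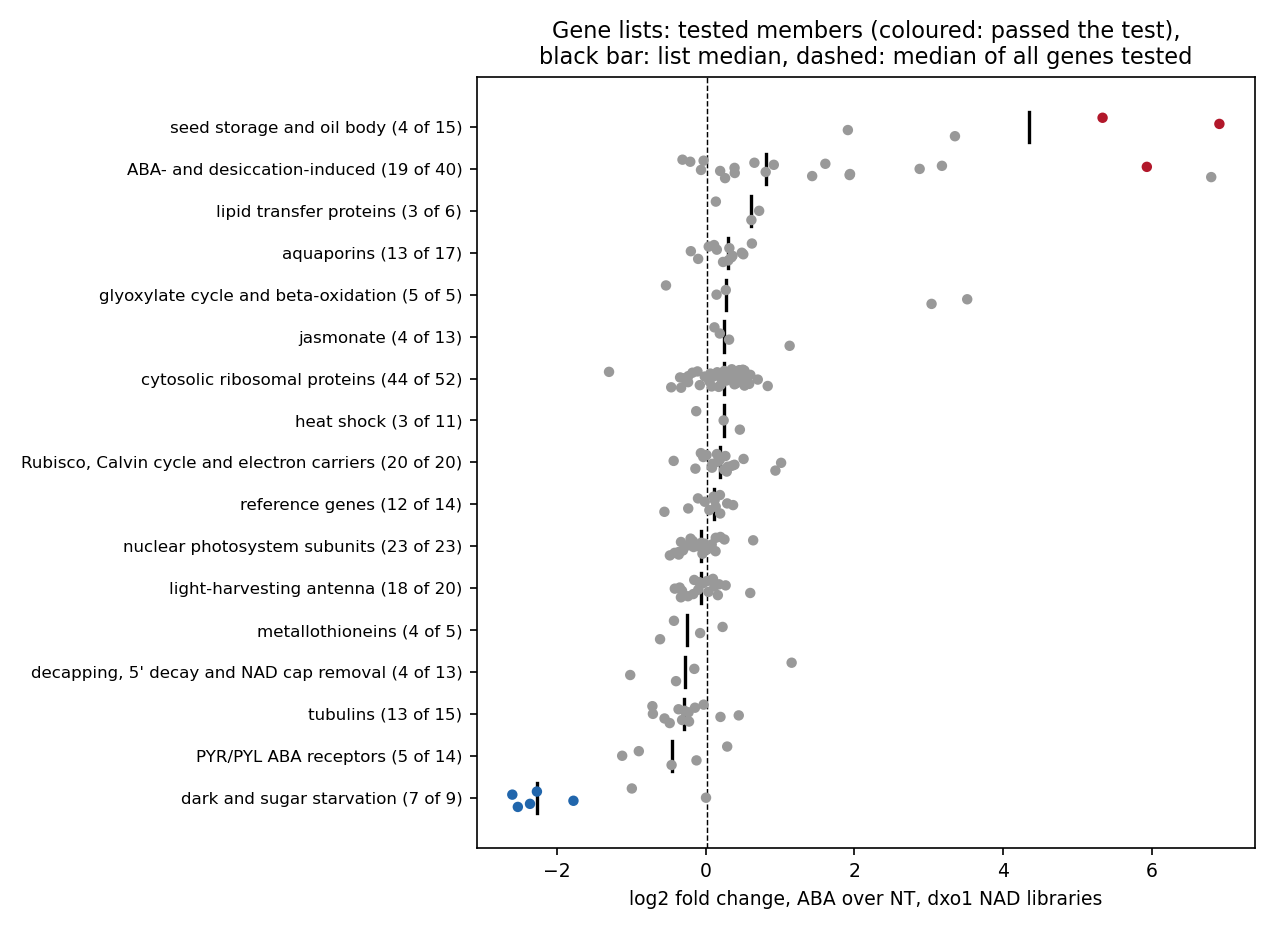
Log2 fold change (ABA over NT) of each tested member of the gene lists with at least 3 tested members; red and blue points passed the test higher and lower, the black bar is the list's median and the dashed line the median of all genes. Calls are found in the seed, ABA-induced and dark and sugar starvation lists, and no gene of the remaining lists passed.

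The signalling parts of the pathway were thinly covered, and none of their genes passed. Of 14 PYR/PYL receptor genes 5 were tested, with 1 positive and 4 negative fold changes and a median of -0.46; the list summed to 89 and 103 reads with ABA against 138 and 123 without. PYL5 had 47.4 and 83.4 CPM with ABA against 101 and 145 CPM without (-0.90 ± 0.43, edgeR adjusted p = 0.804). Of 9 clade A PP2C genes 2 were tested: AHG3 had 164 and 125 CPM against 101 and 60.2 CPM (0.82 ± 0.44, edgeR adjusted p = 0.889) and ABI1 had 77.6 and 69.5 CPM against 77.3 and 65.2 CPM (0.04 ± 0.57). HAI1, a phosphatase that ABA induces, had 5 and 1 reads against 0 and 1 and was too low to test. In GMUCT 6 of the 9 phosphatase genes rose, against 5.3% of all genes tested there. ABA1, the zeaxanthin epoxidase of ABA synthesis, had 147 and 204 CPM with ABA and 112 and 150 CPM without (0.42 ± 0.34).

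Photosynthesis genes were nearly all deep enough to test, and none passed. All 20 Rubisco, Calvin cycle and electron carrier genes were tested (median 0.19, 16 positive), with all 23 photosystem genes (median -0.06) and 18 of 20 light-harvesting genes (median -0.06). With library totals alone the medians of the photosystem and light-harvesting lists turned to 0.10 and 0.086, against 0.16 for all genes. LHCA1 averaged 3697 ± 120 CPM with ABA and 4653 ± 190 CPM without (SD, n = 2 each; log2 fold change -0.33 ± 0.33). FBA1, a plastid aldolase, averaged 1425 ± 95.5 CPM with ABA and 705 ± 23.9 CPM without (1.01 ± 0.34, edgeR adjusted p = 0.372), and it passed without the first Col-0 ABA NAD library. RBCS1A had 2682 and 2367 CPM with ABA against 1941 and 2206 CPM without (0.28 ± 0.33).

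Of 52 cytosolic ribosomal protein genes 44 were tested, with a median of 0.25 and 33 positive values. Of 13 genes of decapping, 5' decay and NAD cap removal 4 were tested. Among them SAL1, the phosphatase whose substrate inhibits 5' exonucleases, had 94.9 and 74.1 CPM with ABA against 27.1 and 50.1 CPM without (1.16 ± 0.54, edgeR adjusted p = 0.798), and NUDT7, a Nudix hydrolase, had 56.1 and 37.1 CPM against 58 and 45.1 CPM (-0.15 ± 0.58). Salicylate genes were nearly absent: 2 of 23 were tested, and the list summed to 29 and 33 reads with ABA against 79 and 60 without. PR1, their best-known marker, had 1 and 1 reads against 8 and 3. In GMUCT PR1 fell, by 3.44 on the log2 scale (edgeR adjusted p = 1.34e-08), and 12 of the 21 genes of that list tested there fell, PR1 included, against 509 of all 19535 (2.61%). The 12 reference genes tested had a median of 0.11, and actin ACT2 averaged 442 ± 2.95 CPM with ABA and 386 ± 6.65 CPM without (0.20 ± 0.28).

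Of 9 floral organ genes none was tested and 8 had no read in any of the 4 libraries, among them AP1, AP3, PI, AG and LFY; the list summed to 2 and 0 reads with ABA against 0 and 2 without. The floral markers thus do not show the bud tissue that one label names. Root markers summed to 16 and 1 reads with ABA against 14 and 11 without, and leaf genes of the light-harvesting list to 10214 and 9003 against 11507 and 9716. Whether a change in tissue makeup has a part in the results was not tested.

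Set beside the same contrast in other libraries of the mutant, most of the 15 genes had the same sign. In total RNA 29 of 5837 genes were higher with ABA (0.497%) and 12 lower (0.206%), and in GMUCT 1036 of 19535 were higher (5.3%) and 509 lower (2.61%). The total RNA count rests on the scaling and on single libraries: it was 24 higher and 963 lower with library totals alone, 8 in all without the first NT total RNA library, and 91 and 100 without the first and the second ABA total RNA library. AT3G02480 and M17 rose in all 3 kinds of library. In total RNA AT3G02480 had 69 and 27 reads with ABA and none without, at least 26.2-fold higher, and in GMUCT it rose by 7.35 ± 0.33 on the log2 scale (edgeR adjusted p = 6.26e-13). OLEO2 rose in GMUCT (7.36) and had 11 and 7 total RNA reads with ABA against 0 and 0 without (edgeR adjusted p = 0.111). XTH7 rose in GMUCT by 0.57 ± 0.15 (edgeR adjusted p = 0.0202). In total RNA its log2 fold change was 0.56 ± 0.33 (edgeR adjusted p = 0.742). That value turned to -0.64 with library totals alone, where the median of all genes was -1.18.

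All 9 genes that fell had negative fold changes in total RNA and in GMUCT, but different ones passed there. Over all genes tested, 2810 of 5837 were negative in total RNA and 10551 of 19535 in GMUCT. STP1, GRP7, AT2G33830, AT3G15450 and SEN1 fell in total RNA, by 1.85 ± 0.35 for GRP7 (edgeR adjusted p = 0.00593) and by 2.97 for SEN1 (edgeR adjusted p = 0.000958). In GMUCT these 5 had log2 fold changes between -0.44 and -0.11 and none passed. ASN1 and BGAL4 fell in GMUCT, by 0.95 ± 0.16 and 0.98 ± 0.15 (edgeR adjusted p = 0.000322 and 0.000137). CCL had -0.67 ± 0.40 in total RNA and -0.03 ± 0.16 in GMUCT, against -2.29 ± 0.38 in the NAD libraries. No test of NAD against GMUCT was run, so these differences between the 2 assays are values side by side.

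SOFL2 and AT3G05155 stood apart from the other 13. AT3G05155 had no read in any of the 8 total RNA libraries and SOFL2 had 2 in all. In GMUCT the log2 fold change was -0.75 ± 0.46 for AT3G05155 and -1.16 ± 0.58 for SOFL2, opposite in sign to the NAD libraries. Neither passed (edgeR adjusted p = 0.447 and 0.315). In the Col-0 NAD libraries AT3G05155 had 11 and 15 reads with ABA against 5 and 13 without, and SOFL2 had 9 and 6 against 5 and 5. SOFL2 overlaps AT1G68862 and AT1G68872 on the opposite strand.

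**Figure D4:**
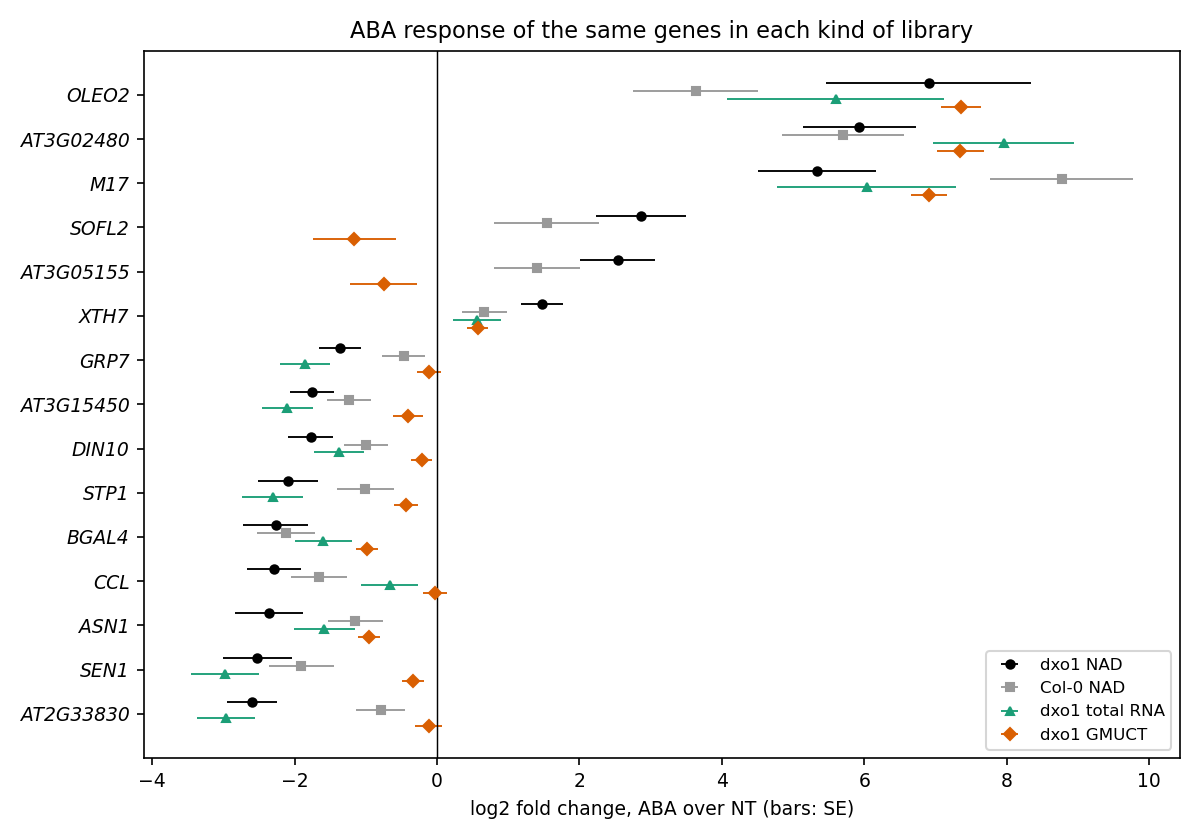
Log2 fold change (ABA over NT) with SE of the 15 genes in dxo1 NAD, Col-0 NAD, dxo1 total RNA and dxo1 GMUCT libraries; total RNA values of SOFL2 and AT3G05155 are left out because they had at most 2 reads. The 9 genes that fell lie left of 0 in all 4, closest to it in GMUCT, and SOFL2 and AT3G05155 lie left of 0 in GMUCT only.

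The difference between NAD and total RNA responses was tested directly over 5837 genes, and 1 passed (0.0171%). It was the spliceosomal snRNA gene U6-29, and its NAD values did not carry the difference: it had 151 and 144 CPM in the ABA NAD libraries against 139 and 110 CPM in the NT NAD libraries (0.23 ± 0.42). In total RNA it had 164 and 98 reads with ABA against 0 and 1 without, and the difference of the log2 fold changes was -7.07 ± 0.93 (edgeR adjusted p = 0.0002). For the 15 genes the lowest adjusted p of this test was 1.00. It could not decide for AT3G05155 (SE 4720) and OLEO2 (SE 2605), and it was weak for SOFL2 (SE 2.51). AT3G05155 and SOFL2 had almost no total RNA reads, and OLEO2 had no NT read in either kind of dxo1 library. The count was 11 without the second ABA total RNA library, 24 without the second NT total RNA library, 3 without the first NT NAD library and 2 without the second ABA NAD, the second NT NAD or the first ABA total RNA library, and 14 when libraries were scaled by their totals alone.

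The difference between genotypes was tested over the 3659 genes, and 0 passed (0%), with 211 at an unadjusted p under 0.05 and 0 by DESeq2. In Col-0 NAD libraries 11 genes were higher with ABA (0.301%) and 2 lower (0.0547%). Of the 11, 5 were protein-coding and the others were snoRNA, snRNA or other RNA genes. These Col-0 values and the gene differences below include the first Col-0 ABA NAD library, which stood apart. All 15 genes had the same sign in Col-0 as in dxo1, and AT3G02480 and M17 rose there too and BGAL4 fell. Over all 3659 genes tested, 1638 were positive and 2021 negative in Col-0. AT3G02480, M17 and OLEO2, at or near 0 without ABA, entered the test mainly through ABA libraries, which tilts their signs upward. AT2G33830 had the smallest p of the 15 in this test, with a fall of 2.60 ± 0.35 in dxo1 and a log2 fold change of -0.79 ± 0.34 in Col-0, and the difference was -1.81 ± 0.49 (edgeR adjusted p = 0.509). M17 and OLEO2 had larger differences with larger errors, of -3.43 ± 2.35 and 3.27 ± 2.1, both from libraries at or near 0. GRP7 had -1.37 ± 0.30 in dxo1 and -0.47 ± 0.30 in Col-0. Leaving out 1 NAD library left a lone library in 1 of the groups compared, assumed to vary like the others. Without the second Col-0 ABA NAD library, that lone library was the one that stood apart. The result depended on single libraries: 26 genes passed without the first Col-0 ABA NAD library, 51 without the second, 16 without the second Col-0 NT library, 11 without the second dxo1 ABA library, 7 without the first dxo1 NT library and 1 without the second.

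The 3 genes with the smallest p in that test, named only for that, were AT4G23420 and the snoRNA genes AT2G35384 and AT1G75163 (edgeR adjusted p = 0.481 for each). AT2G35384 had 11 and 16 reads in the ABA libraries of dxo1 against 21 and 64 in its NT libraries, and 18 and 17 in the ABA libraries of Col-0 against 10 and 7 in its NT libraries. AT1G75163 had 4 and 4 reads against 6 and 27 in dxo1, and 17 and 7 against 3 and 1 in Col-0. AT4G23420 overlaps a small nuclear RNA gene, AT4G07120, on the same strand, so its reads cannot be given to either.

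Small nucleolar RNAs, which guide the modification of ribosomal RNA, mostly had lower values with ABA, although no single one passed. Of 71 snoRNA genes 45 were tested, 41 with a negative and 4 with a positive fold change, and their median was -1.15 against 0.01 for all genes (39 negative and a median of -0.99 with library totals alone). In 25 of the 45 both ABA libraries lay below both NT libraries, against 20% of all genes tested, and in 1 of the 45 both lay above, against 21.8% of all. Without the first Col-0 ABA NAD library 7 of 47 passed as lower, against 36 of all 4719 genes tested (0.763%), and with the dxo1 NAD libraries alone 7 of 40, against 42 of all 2933 (1.43%). Only AT3G58193, AT5G66562 and AT2G35744 passed in both of these fits, and the others that passed differed between them. SNOR30 had 836 and 628 reads with ABA against 2192 and 1333 without (-1.22 ± 0.90, edgeR adjusted p = 0.968 in the main fit). AT3G58193 had 26 and 87 against 176 and 386 (-2.34 ± 0.65, edgeR adjusted p = 0.193). AT5G44286 shows how far replicates could differ, with 54 and 527 reads with ABA and 693 and 1130 without; these 3 were chosen after their values were seen.

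SnoRNA genes took 4.17% and 4.39% of nuclear reads in the ABA NAD libraries against 6.80% and 5.71% in the NT NAD libraries. In total RNA they took 51.1% and 74.5% with ABA against 3.01% and 23.5% without, a shift the other way with wide spread, of which AT3G21805 made up much. Without AT3G21805 the shares were 1.94% and 2.29% against 3.64% and 4.01% in NAD libraries, and 16.9% and 9.35% against 2.51% and 11.8% in total RNA, where the groups overlapped. In the Col-0 NAD libraries all snoRNA genes took 19.9% and 3.21% with ABA against 3.96% and 8.03% without, and 8.5% and 1.3% against 0.921% and 3.22% without AT3G21805; these groups overlapped both ways. The 19.9% and 8.5% are from the first Col-0 ABA NAD library, which stood apart and also enters the Col-0 median. The median over tested snoRNA genes was 1.22 in Col-0 NAD, 0.08 in dxo1 GMUCT and 0.93 in dxo1 total RNA. With library totals alone the total RNA median turned to -0.16, against -1.18 for all genes. Whether the snoRNA share of a library has a part in the NAD result was not tested.

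**Figure D5:**
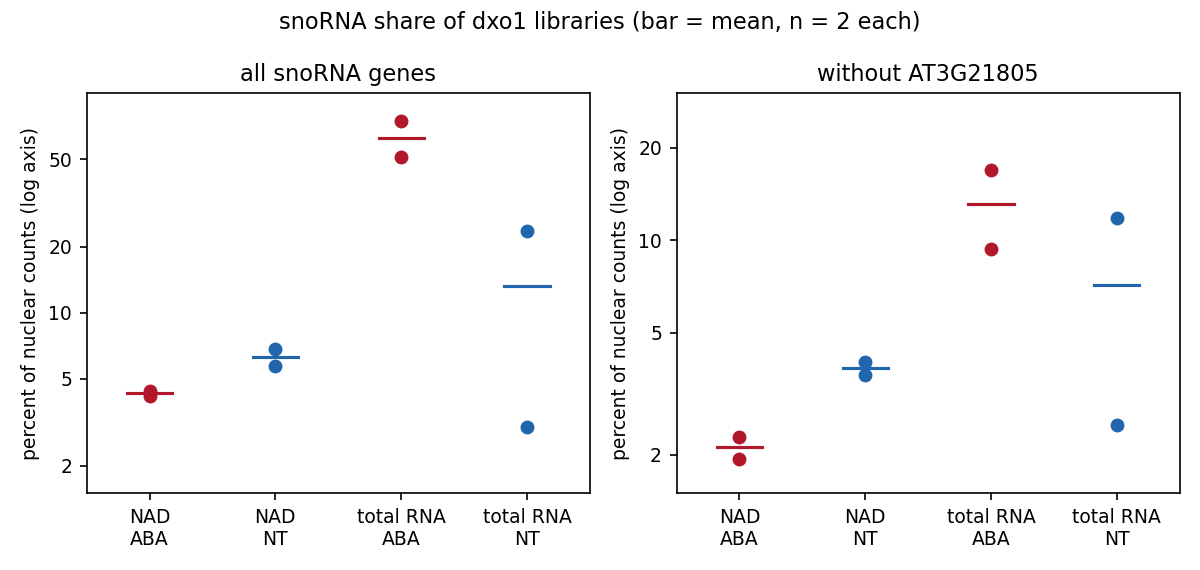
SnoRNA genes as a percent of nuclear reads (log axis) in each dxo1 NAD and total RNA library, with all snoRNA genes on the left and without AT3G21805 on the right; bars are means of n = 2. The ABA NAD libraries lie below the NT NAD libraries in both panels, while the total RNA libraries lie the other way on the left and overlap on the right.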

How the data were processed

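Libraries of NAD-captured RNA, total RNA and GMUCT were sequenced in single 50 nt reads from dxo1 and Col-0 plants. The authors deposited read counts per gene, 1 file per library and not normalized; per the submitters' processing notes they used cutadapt, STAR 2.4.2a and HTSeq with TAIR10, with no other version and no counting mode given in the sources used here. The 5 tally rows that name no gene were dropped; reads mapped to more than 1 place made up between 93.5% and 94.4% of the listed reads of the dxo1 NAD libraries. Library sizes were sums over nuclear genes. Counts were tested with edgeR 4.0.16 (R 4.3.3, limma 3.58.1): TMM scaling, filterByExpr with a minimum count of 10, and the quasi-likelihood test over all 8 NAD libraries with group means only, Benjamini-Hochberg adjusted over all genes tested, threshold 0.05. CPM use TMM-scaled library sizes, and SE was taken as the size of the log2 fold change divided by the root of its F statistic. The total RNA contrast and its difference from NAD came from a fit of 16 libraries, and GMUCT from a fit of its 8. All p-values are two-sided.

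Ratios of low counts carry exact Clopper-Pearson intervals at 95%, and the floor was 3 reads over a group; both cover counting error only. Replicate libraries differed by more than sampling noise and none was merged. RefSeq TAIR10.1 named 28009 of the nuclear genes (98.3%).

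The 4 libraries were picked by their labels, but this comparison, the genes described and the 23 gene lists (359 entries) were chosen with earlier results of these data known. Named genes are the 12 largest called changes each way with at least 20 reads, at most 4 members of each list with the lowest p, called genes of the difference tests (or the 3 with the smallest p), the 5 most abundant called genes each way, and fixed markers. Alternatives were DESeq2 size factors and Wald test (1.42.0), library size alone, other filters, gene classes, a replicate block and leaving out libraries.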

Additional observations from a re-analysis of the deposited data

How the results depend on the processing

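The 15 calls of the ABA contrast in the dxo1 NAD libraries became 14 with DESeq2 size factors, 16 with library size alone (which moves the median gene to 0.16), 14 with organelle genes, 20 without a low-count filter, 8 with a mean of at least 50 CPM, 1 with the DESeq2 Wald test and 39 (16 higher, 23 lower) with protein-coding genes alone, of which 15 were the same genes. The count was 64 with the dxo1 NAD libraries alone, 56 without the first Col-0 ABA NAD library, and 3 to 14 when 1 dxo1 NAD library was left out. The replicate numbers only share a number: the replicate difference of tested genes correlated at 0.06 between ABA and NT libraries. With the replicate block 8 genes passed, all among the 15, and the block left 0 calls between genotypes, 1 between NAD and total RNA, 43 in total RNA and 1625 in GMUCT.

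The genotype difference (0) gave 7 calls without the filter, 1 with protein-coding genes alone and 0 to 51 with 1 library left out. The NAD to total RNA difference (1) gave 14 with library size alone, 23 without the filter, 2 with organelle genes, 0 with protein-coding genes alone and 1 to 24 with 1 library left out. Calls in total RNA (41) became 987 with library size alone (24 higher, 963 lower, median gene at -1.18), 26 with at least 50 CPM, 65 with organelle genes, 12 with the dxo1 libraries alone, and 8 to 100 with 1 library left out (8 without the first NT, 91 and 100 without the first and the second ABA library). GMUCT (1545) gave 1289 to 1625. The total RNA and GMUCT alternatives were chosen after seeing the data. Every fit with 1 library left out had a lone library in 1 group, assumed to vary like the others. The cause was not tested in any of these.

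For 57 named genes, 778 values under alternatives kept direction and side of the threshold in 677, lost the call in 78, gained it in 18 and turned sign in 5. The 5 were small. ABI1 ran from -0.082 to 0.17, with -0.049 and -0.082 without dxo1 ABA replicate 1 and dxo1 NT replicate 2. NUDT7 ran from -0.49 to 0.10, with 0.10 and 0.047 without dxo1 ABA replicate 2 and dxo1 NT replicate 1. AT4G23420 ran from -1.04 to 0.048, the positive value without dxo1 NT replicate 2. Depth limits the test to genes that reach about 10 reads in some of the libraries.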

Other observations

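Of the 3659 genes tested in the NAD libraries, 3 (0.082%) had at most 2 reads over the 8 total RNA libraries. They were AT3G05155 and SOFL2, which are 2 of the 6 genes that rose, and AT2G20150, an uncharacterized gene with 12 and 11 reads in the ABA NAD libraries of dxo1 against 1 and 1 in its NT NAD libraries, which did not pass. Genes so low in NT libraries enter the test mainly through the ABA libraries, and the 3 were singled out after their values were seen.

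Lists with less to show had no gene that passed. The 13 tubulin genes tested had a median log2 fold change of -0.28 and the 13 aquaporin genes 0.30, among them PIP2A at 0.51 ± 0.30. The 3 lipid transfer protein genes had a median of 0.62; LTP1 had 1134 and 1144 CPM with ABA against 823 and 662 CPM without. The 4 metallothionein genes had a median of -0.25, the 3 heat shock genes 0.24 and the 4 jasmonate genes 0.25, with the lipoxygenase gene LOX2 at 99.2 and 111 CPM with ABA against 54.1 and 40.1 CPM without (1.13 ± 0.46, edgeR adjusted p = 0.67). No cell cycle gene and no root marker was tested.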
